A study of Mus musculus with 6 samples.

Results

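The potassium channel genes were taken as every noncontrol probe of the array whose gene name starts with Kcn, the gene symbol root of potassium channel subunits and of some of their accessory proteins. This gave 123 of the 41174 noncontrol probes, for 84 of the 28786 gene names. One of the 84, Kcnq1ot1, is a noncoding RNA transcribed within the Kcnq1 gene and encodes no channel. The members were chosen by name, not by their values.

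The hearts came from male mice of C57BL/6, a common inbred laboratory strain, in 2 groups of 3 biological replicates. The ADX mice had been adrenalectomized, which removes the glands that make corticosterone and aldosterone, and the sham mice had been sham-operated. Surgery was at 1 month of age and hearts were collected 6 months later, although another label calls the mice 6 months old. Heart RNA of each mouse was hybridised to its own 1-colour Agilent array of 60-base probes, and the stated question is how glucocorticoids maintain the heart.

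Potassium channels let potassium leave the cell and so set the resting potential and end each action potential. In the adult mouse ventricle, repolarisation is fast and rests largely on a transient outward current, carried by the Kv4 subunits of the Kcnd genes with the accessory protein of Kcnip2, and on delayed rectifiers such as those of the Kcna genes. The inward rectifiers of the Kcnj genes hold the resting potential, open when acetylcholine acts on the atrium, or open when ATP runs low. The two-pore channels of the Kcnk genes carry background current, and the calcium-activated channels of the Kcnn and Kcnma genes respond to calcium.

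All 10 cardiomyocyte markers were measured in both groups. Between 60.5% and 66.8% of spots on an ADX array, and 57.7% to 60.2% on a sham array, stood well above background. ADX replicate 1 and all 3 sham replicates lay on slide 1, and ADX replicates 2 and 3 lay on slide 2, so a comparison within a slide sets ADX replicate 1 against the sham arrays. Levels below are log2 signals relative to the 75th percentile of their own array, and differences are ADX minus sham on that log2 scale with the standard error (SE). Levels of different probes are not comparable with each other. The number of arrays limits the precision, and an exact permutation test of 3 against 3 cannot go below a two-sided p of 0.1.

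Fewer Kcn probes than probes in general gave a signal. Of the 123 probes, 57 (46.3%) were well above background on all 3 ADX arrays and 50 (40.7%) on all 3 sham arrays, where the background over all probes was 57.5% for ADX and 54.5% for sham. Single arrays had 66, 72 and 64 such Kcn probes in ADX, against 59, 57 and 59 in sham. On all 3 ADX but not all 3 sham arrays were 9 Kcn probes (7.32%), against 3.74% of all probes, and on all 3 sham but not all 3 ADX arrays were 2 (1.63%), against 0.714% of all probes. Over the whole array, 66.8% and 63.2% of spots were above background on ADX replicates 2 and 3, which lay on slide 2. ADX replicate 1, on slide 1, had 60.5%, beside 57.7% to 60.2% on the sham arrays of that slide. The part of these whole-array differences in the Kcn counts was not tested. No array gave a signal above background for 44 of the probes.

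**Figure D1:**
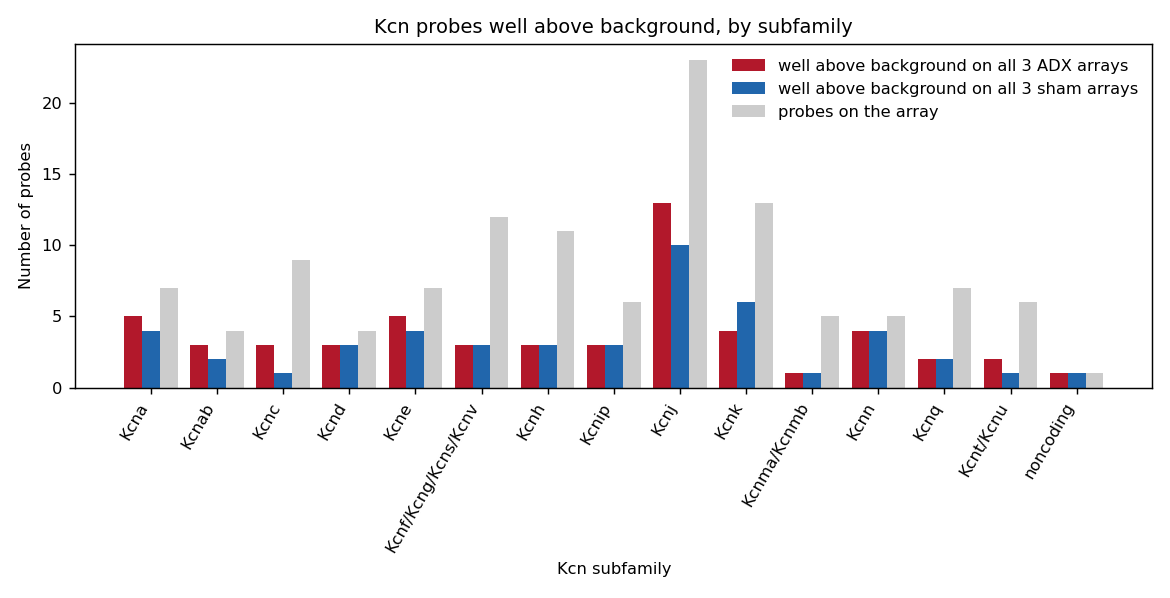
Number of Kcn probes (y axis) by subfamily (x axis), with red bars for probes well above background on all 3 ADX arrays, blue bars for all 3 sham arrays and grey bars for all probes on the array. Kcnj has the most probes above background, 13 on ADX and 10 on sham arrays of 23, and Kcnn the highest share among subfamilies of 5 or more probes, 4 on ADX and 4 on sham arrays of 5.

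The inward rectifiers of the Kcnj subfamily had 13 probes above background on all ADX arrays and 10 on all sham arrays, of 23. The Kcnk subfamily was the only one with fewer in ADX, 4 against 6 in sham, of 13. The Kcnh subfamily, which holds the gene of the rapid delayed rectifier, had 3 in ADX and 3 in sham of 11. For the silent subunits of Kcnf, Kcng, Kcns and Kcnv, which alter the partners they assemble with, it was 3 in ADX and 3 in sham of 12.

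At gene level, 47 of the 84 Kcn genes could be tested, which needed a probe that every array of 1 group measured well above background, and 41 of them were above background on all 6 arrays. Another 6 were tested through 1 group alone. Kcna2, Kcnc4, Kcnj15 and Kcnj9 were above background on all 3 ADX arrays but on 0, 1, 1 and 2 of the sham arrays. Kcnk1 and Kcnk7 were above background on 2 and 1 of the ADX arrays but on all 3 sham arrays. Of the 37 untested genes, 22 were not above background on any array. These include Kcne2, a beta subunit, Kcnk2, a stretch-activated two-pore channel, and Kcnn3, a small-conductance calcium-activated channel. A few further genes known from heart or vessels were above background on a few arrays only: Kcnmb1, Kcnk5 and Kcnc1 on 2 ADX and 1 sham array each, and Kcnma1 on 1 ADX and 0 sham arrays.

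No Kcn gene passed an adjusted p of 0.05 in either direction by limma with Benjamini-Hochberg adjustment over all 16948 tested genes, and the lowest adjusted p among the 47 was 0.244. The background was 0.0295% of all genes called higher and 0.0118% called lower in ADX, 5 and 2 genes. At an unadjusted p under 0.05, 6 Kcn genes (12.8%) were higher and 4 (8.51%) lower in ADX, where the background over all genes was 6.27% higher and 5.99% lower. Among the 41 genes above background on all 6 arrays these counts were 3 higher and 3 lower (7.32% each), against 5.16% and 6.17% of all such genes, and the groups did not overlap in 4 higher and 5 lower genes, 9.76% and 12.2%, against 9.62% and 8.29% of all such genes. The 3 ADX and 3 sham values did not overlap in 7 of the 47 genes that were higher (14.9%, background 10.4%) and 6 that were lower (12.8%, background 7.95%).

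The background correction changed this picture. After normexp correction of the mean spot and local background intensities, in place of the scanner's processed signal, 22 of the 47 Kcn genes (46.8%) were called lower and 0 higher, where 27.9% of all genes were called lower and 7.2% higher. The median difference was then -0.61 for the Kcn genes and -0.051 over all genes. The 22 genes were dim ones, with negative mean levels in both groups. None of Kcna5, Kcna7, Kcnd2, Kcnh2, Kcnj3, Kcnj8, Kcnj11, Kcnj12, Kcnk3, Kcnn2 and Kcnq1, whose mean levels were positive in both groups, was called. Some dim genes were not called either, among them Kcnd3, Kcne3, Kcnj5 and Kcnn4, whose mean levels were negative in both groups. The part of signal level in these calls was not tested. Of the 6 genes higher at an unadjusted p, only Kcnip2 kept its direction under normexp, while the 4 lower genes kept theirs. On slide 1 alone, where the single ADX array is assumed to vary as the sham arrays do, 1 Kcn gene was called higher, Kcnma1, where 0.233% of all genes were. Kcnma1 was above background on that ADX array and on no other array.

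The members lay in both directions. The difference was positive for 21 genes and negative for 26, with a median of -0.024 beside 0.032 over all genes. The median size of the difference, sign left out, was 0.25 for the Kcn genes and 0.14 over all genes, and their median SE was 0.17, against 0.14 over all genes. In 18 of the 47 the difference was smaller than its own SE.

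**Figure D2:**
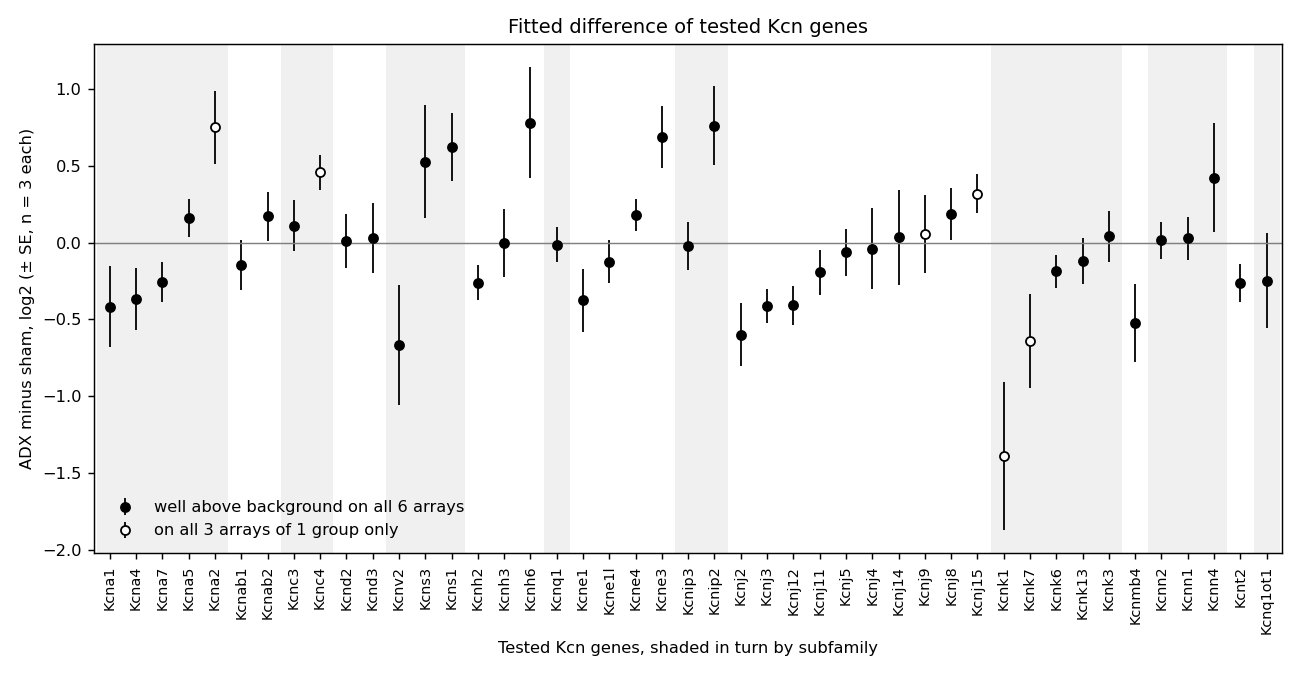
Fitted difference, ADX minus sham on the log2 scale (y axis), for 45 of the 47 tested Kcn genes (x axis, grouped by subfamily in shaded blocks). Points are fitted differences with bars of 1 SE (n = 3 each), filled where the gene was well above background on all 6 arrays, and the values run from -1.39 for Kcnk1 to 0.78.

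The 10 tested Kcnj genes had a median difference of -0.052, with a range of -0.60 to 0.32, and the 5 Kcnk genes a median of -0.19, with a range of -1.39 to 0.040. The 5 Kcna genes had a median of -0.26, which was -0.060 within slide 1, and ran from -0.42 to 0.75. Medians over 4 Kcne, 3 Kcnh and 3 Kcnn genes were 0.026, -0.0031 and 0.028. Their ranges were -0.38 to 0.69 for Kcne, -0.26 to 0.78 for Kcnh and 0.014 to 0.42 for Kcnn. With 2 tested genes each, the medians were 0.020 for Kcnd, 0.37 for Kcnip, 0.28 for Kcnc and 0.014 for Kcnab. The 3 silent subunits had a median of 0.52, which was -0.086 within slide 1. After normexp the medians were -0.67 for Kcnj, -0.52 for Kcnk, -0.65 for Kcne and -0.074 for Kcnn. They were -0.22 for Kcnip, -0.65 for Kcnc, -0.68 for Kcnab and -0.82 for the silent subunits. With every probe tested the Kcnip median was -0.024.

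Among genes of the transient outward current, Kcnip2 had the largest difference in either direction among the cardiac channel genes measured on all 6 arrays. It encodes KChIP2, the calcium-binding subunit that brings Kv4 channels to the membrane of ventricular myocytes. Its probe, shown whole because this is the member with that difference, lies at chr19:45690907-45690966 on the minus strand of mm7, the mouse build on which the array was designed.
Kcnip2: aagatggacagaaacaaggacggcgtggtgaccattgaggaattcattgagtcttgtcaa
Kcnip2 levels were 0.60, 0.12 and 0.27 in ADX hearts, against -0.38, -0.94 and 0.035 in sham hearts. Every ADX value lay above every sham value, with sham replicate 3 close below the lowest ADX heart. The difference was 0.76 ± 0.26 (SE, n = 3 each), with an unadjusted p of 0.0214 and an adjusted p of 0.333 by limma. Within slide 1 the difference was 1.03, and it was 0.53 after normexp.

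Kcnd2 and Kcnd3 encode the Kv4.2 and Kv4.3 pore subunits that KChIP2 binds. Kcnd3 levels were -2.01, -2.32 and -2.12 in ADX hearts, against -1.68, -2.54 and -2.31 in sham hearts, a difference of 0.030 ± 0.23 (SE, n = 3 each). The ADX hearts lay inside the range of the sham hearts. A pair of Kcnd2 probes were tested and gave unlike results, so the first 30 of the 60 bases of each are shown.
Kcnd2, probe at chr6:21665679-21665738, plus strand of mm7: aaatatactgtgttggtggtgaatgacttt
Kcnd2, probe at chr6:21662299-21663298, plus strand of mm7: gatcagatgtgtggagagaactccactatc
The design places the second of these over 1000 bases, longer than the probe itself. The brighter Kcnd2 probe, at the first position, had levels of 1.97, 1.47 and 1.94 in ADX hearts, against 1.93, 1.87 and 1.57 in sham hearts. These groups overlapped throughout, with a difference of 0.0096 ± 0.18 (SE, n = 3 each) and an adjusted p of 0.99 by limma. At the other Kcnd2 probe the levels were -1.23, -1.57 and -1.25 in ADX hearts, against -0.45, -0.38 and -0.69 in sham hearts. There every ADX heart lay below every sham heart, on slide 1 as well, by -0.85 ± 0.14 (SE, n = 3 each), with an unadjusted p of 0.000596 and an adjusted p of 0.141 when every probe was tested by itself with limma. The 2 Kcnd2 probes therefore disagreed, with a difference far smaller than its SE at the brighter probe and lower ADX levels at the other. The mean of both probes gave -0.42.

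Kcna4 encodes Kv1.4, the subunit of the slow transient outward current. Its levels were -4.17, -3.80 and -3.37 in ADX hearts, against -3.39, -3.44 and -3.41 in sham hearts. ADX replicate 3 lay above the sham hearts and replicates 1 and 2 below, for a difference of -0.37 ± 0.20 (SE, n = 3 each) and an adjusted p of 0.501 by limma. Within slide 1 it was -0.76, and after normexp -1.03 with an adjusted p of 0.0241 by limma. Kcna4 was among the 22 Kcn genes called lower after normexp, where 27.9% of all genes were.

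Kcna5 encodes Kv1.5, a delayed rectifier of atrium and, in the mouse, ventricle, whose mRNA is known to be raised by glucocorticoids in rat ventricle. Kcna5 levels were 0.51, 0.53 and 0.44 in ADX hearts, against 0.19, 0.54 and 0.27 in sham hearts. The groups overlapped through sham replicate 2, and the difference was 0.16 ± 0.12 (SE, n = 3 each) with an adjusted p of 0.625 by limma. Kcna7, a Kv1 subunit of heart and skeletal muscle, differed by -0.26 ± 0.13 with an adjusted p of 0.482, and by -0.060 within slide 1.

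Kcna2, which encodes Kv1.2, was above background on all 3 ADX arrays and on no sham array. Its levels were -3.29, -4.14 and -3.75 in ADX hearts, against -4.30, -4.33 and -4.79 in sham hearts, where it was not well above background. The ADX mean was 1.58-fold the higher of the dimmest detected signal of any probe and its own signal, taken on each sham array. Kcna2 passed the filter through ADX alone, and this ratio depends on the background correction, so it is not a lower limit of a change. The fitted difference was 0.75 ± 0.24 (SE, n = 3 each) with an adjusted p of 0.31 by limma, and -0.93 after normexp. Kcnc4, a Kv3 subunit, passed the filter through ADX, since it was above background on 3 ADX arrays and 1 sham array, with levels of -3.85, -3.97 and -4.13 in ADX hearts, against -4.52, -4.39 and -4.41 in sham hearts. The Kcnc4 groups did not overlap, and the fitted difference of 0.46 ± 0.11 (SE, n = 3 each), with an adjusted p of 0.244 by limma, was -1.08 after normexp.

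The beta subunits of the Kv1 channels, Kcnab1 and Kcnab2, differed by -0.14 ± 0.16 and 0.17 ± 0.16 (SE, n = 3 each), and by -0.69 and -0.67 after normexp. A dimmer Kcnab1 probe had the opposite sign, at 0.12 ± 0.21. Kcns1, a silent subunit that modifies other Kv channels, had levels of -3.11, -2.92 and -3.44 in ADX hearts, against -3.55, -3.57 and -4.21 in sham hearts. The Kcns1 groups did not overlap, with a difference of 0.62 ± 0.22 and an adjusted p of 0.353 by limma, which became -0.83 after normexp.

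Kcnh2 encodes the pore of the rapid delayed rectifier, and Kcnq1 with the beta subunit Kcne1 forms the slow one. Kcnh2 levels were 1.42, 1.20 and 1.23 in ADX hearts, against 1.49, 1.67 and 1.47 in sham hearts. Every ADX heart lay below every sham heart, but by little on slide 1, and the difference was -0.26 ± 0.12 (SE, n = 3 each), with an adjusted p of 0.423 by limma and a value of -0.13 within slide 1. Kcnq1 levels were 3.29, 3.02 and 3.05 in ADX hearts, against 3.13, 3.15 and 3.13 in sham hearts. The sham hearts lay inside the range of the ADX hearts, and the difference was -0.015 ± 0.11. The noncoding Kcnq1ot1 had -0.25 ± 0.31, within the spread between hearts.

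Of the single-span Kcne beta subunits, which change the gating of several Kv channels, Kcne1 differed by -0.38 ± 0.20 (SE, n = 3 each) and had its lowest value, -1.03, in ADX replicate 3. Kcne3 levels were -2.86, -2.62 and -3.14 in ADX hearts, against -3.22, -3.59 and -3.86 in sham hearts. The Kcne3 groups did not overlap and differed by 0.69 ± 0.20, with an unadjusted p of 0.0121 and an adjusted p of 0.289 by limma, and by -0.58 after normexp. At a second Kcne3 probe the difference was 0.39 ± 0.55 and the groups overlapped. Kcne4 lay at -2.90 to -3.11 in ADX hearts, against -3.15 to -3.20 in sham hearts, without overlap, a difference of 0.18 ± 0.10 with an adjusted p of 0.526 that became -0.71 after normexp.

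**Figure D3:**
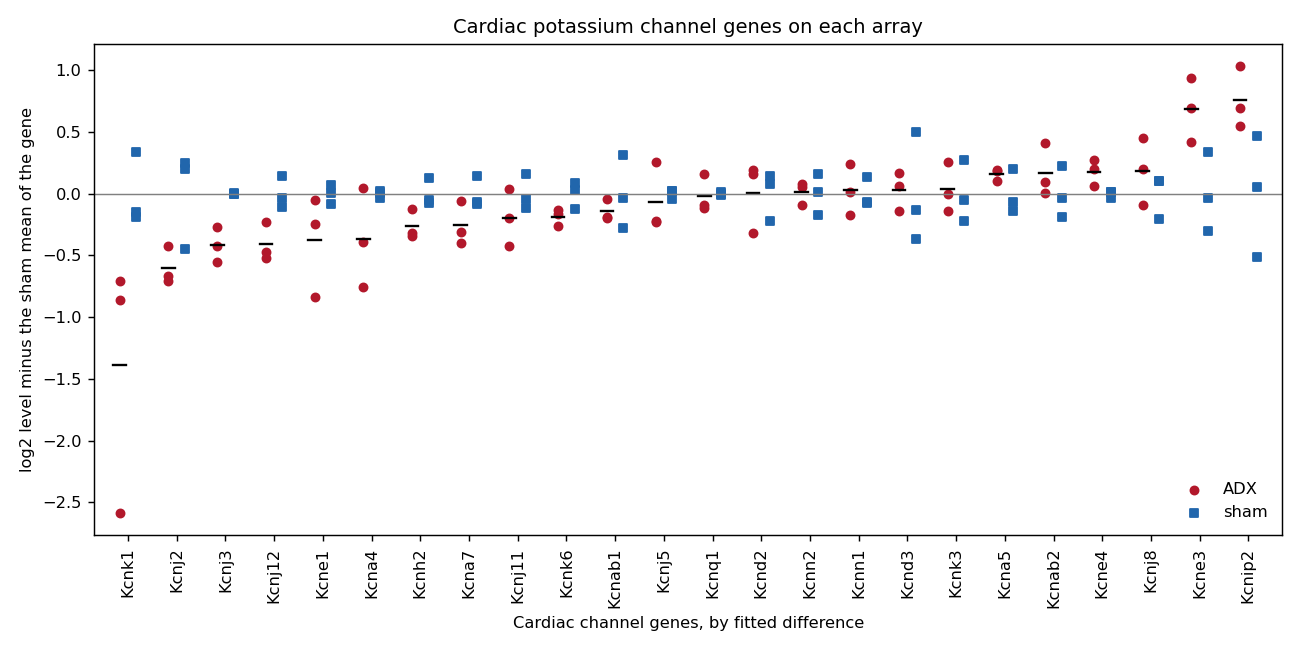
Log2 level on each array minus the sham mean of the same gene (y axis) for 24 of the 25 tested cardiac channel genes (x axis, ordered by fitted difference). Red circles are ADX hearts, blue squares sham hearts and black lines the ADX mean (n = 3 each). Kcnip2 and Kcne3 lie highest at 0.76 and 0.69, and Kcnk1 lies lowest at -1.39, with its lowest value in ADX replicate 3.

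Kcnj2 and Kcnj12 encode Kir2.1 and Kir2.2, the inward rectifiers of the ventricular resting current. Kcnj12 levels were 0.83, 0.54 and 0.58 in ADX hearts, against 1.02, 1.20 and 0.95 in sham hearts. Every ADX heart lay below every sham heart, by -0.41 ± 0.13 (SE, n = 3 each), with an unadjusted p of 0.0145 and an adjusted p of 0.30 by limma. Within slide 1 the Kcnj12 difference was -0.23. Kcnj2 levels were -4.02, -3.73 and -3.98 in ADX hearts, against -3.06, -3.11 and -3.76 in sham hearts. Sham replicate 3 reached into the ADX range, and the difference of -0.60 ± 0.20 had an unadjusted p of 0.022 and an adjusted p of 0.338, with -0.71 within slide 1 and -1.20 after normexp. The remaining Kir2 genes, Kcnj4 and Kcnj14, differed by -0.039 ± 0.26 and 0.033 ± 0.31, the last being 0.75 within slide 1. A dimmer Kcnj4 probe gave 0.31, the opposite sign. Kcnj14 was not among the genes fixed for naming and is given here to complete the Kir2 group.

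Kcnj3 and Kcnj5 encode GIRK1 and GIRK4, the subunits of the acetylcholine-activated channel, which in the mouse heart is most abundant in atrium and pacemaker tissue. Kcnj3 is shown by the first 30 bases of its 2 tested probes, 1873 bases apart, because they gave nearly the same difference.
Kcnj3, probe at chr2:55598012-55598071, plus strand of mm7: ggaagctgcatagatcatttagtccaacac
Kcnj3, probe at chr2:55596139-55596198, plus strand of mm7: tttggctgataagataatcctccctatgaa
At the brighter probe Kcnj3 levels were 1.13, 0.98 and 0.85 in ADX hearts, against 1.40, 1.40 and 1.40 in sham hearts. At the other probe they were -1.65, -1.78 and -1.95 in ADX hearts, against -1.38, -1.34 and -1.39 in sham hearts. At both probes every ADX heart lay below every sham heart, and the sham hearts hardly differed among themselves. The Kcnj3 difference was -0.41 ± 0.11 (SE, n = 3 each) at the brighter probe, with an unadjusted p of 0.00713 and an adjusted p of 0.261 by limma, and -0.42 ± 0.12 at the other. Within slide 1 it was -0.27, and after normexp -0.16. Kcnj5 levels were -2.96, -3.44 and -3.43 in ADX hearts, against -3.19, -3.26 and -3.19 in sham hearts. The sham hearts lay inside the ADX range, and the Kcnj5 difference was -0.065 ± 0.15.

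Markers of atrial tissue moved in the same direction as Kcnj3. All 11 tested of 12 atrial markers had lower means in ADX, with a median difference of -0.61 and a range of -1.37 to -0.49. By limma, 0 passed an adjusted p of 0.05 and 10 had an unadjusted p under 0.05, where 5.99% of all genes were lower at that p. Like the other gene lists, the atrial list was chosen with earlier results of these data known, so this share is not independent evidence of an atrial change. The summed level of the markers, on a linear scale relative to the 75th percentile of each array, was 1166 to 1266 in ADX hearts, against 1533 to 2293 in sham hearts. The defining marker Nppa, the atrial natriuretic peptide, differed by -0.70 ± 0.18, and Nr2f1 was not above background on any array. The median deviation of the markers from their sham mean was -0.73, -0.63 and -0.71 in ADX hearts, against -0.060, 0.29 and -0.26 in sham hearts. In bulk heart RNA, fewer cells of a type and less RNA per cell cannot be told apart, and the part of atrial tissue in the Kcnj3 difference was not tested.

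**Figure D4:**
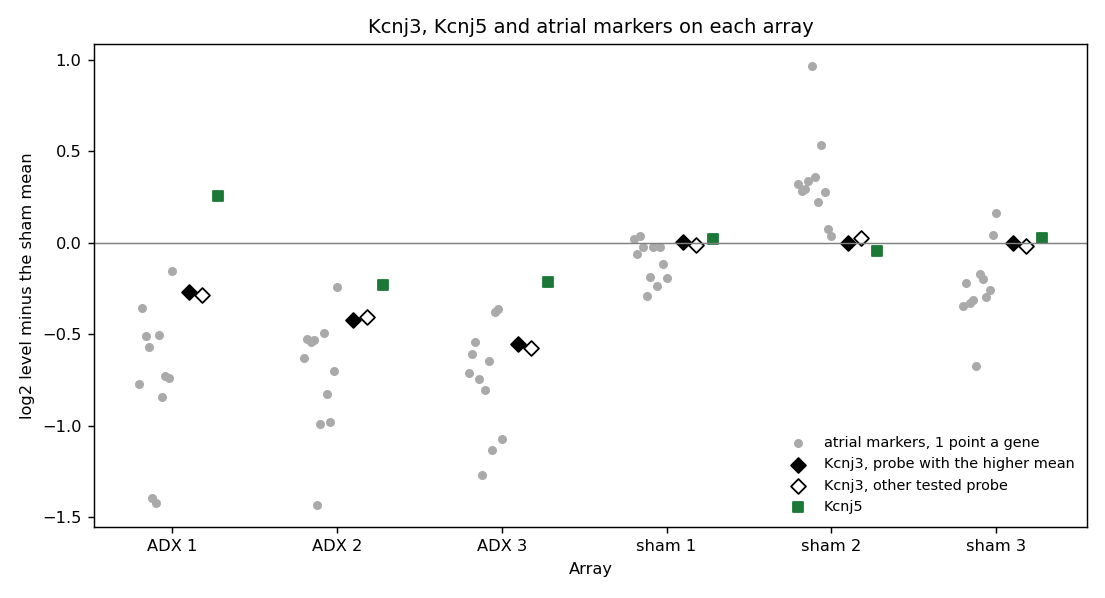
Log2 level minus the sham mean of the same probe (y axis) on each array (x axis, ADX left of sham). Grey points are the 11 tested atrial markers, diamonds the 2 tested Kcnj3 probes and green squares Kcnj5; both Kcnj3 probes lie below 0 in all 3 ADX hearts and close to 0 in the sham hearts.

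Kcnj11 and Kcnj8 encode Kir6.2 and Kir6.1, the pores of the ATP-sensitive channels of cardiac muscle and of vessels. Kcnj11 levels were 2.16, 1.70 and 1.93 in ADX hearts, against 2.08, 2.01 and 2.28 in sham hearts. The groups overlapped, with a difference of -0.19 ± 0.15 (SE, n = 3 each) and 0.034 within slide 1. Kcnj8 differed by 0.19 ± 0.17, and its second probe by 0.18 ± 0.18. Further members of the subfamily were dim. Kcnj15 passed the filter through ADX, being above background on 3 ADX arrays and 1 sham array. Its levels were -3.94, -3.71 and -3.89 in ADX hearts, against -4.20, -4.00 and -4.29 in sham hearts, and the groups did not overlap. The Kcnj15 difference was 0.32 ± 0.12 with an adjusted p of 0.385 by limma, and -1.04 after normexp. Kcnj9, above background on 3 ADX and 2 sham arrays, differed by 0.056 ± 0.25.

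Kcnk1, the two-pore channel TWIK-1, had the most negative difference of all members, and part of its size came from 1 heart. Its levels were -3.64, -3.79 and -5.52 in ADX hearts, against -3.08, -3.12 and -2.59 in sham hearts. Every ADX heart lay below every sham heart, and in ADX replicate 3 it was not above background. Kcnk1 thus passed the filter through sham alone, the group where it was higher. The Kcnk1 difference was -1.39 ± 0.48 (SE, n = 3 each), with an unadjusted p of 0.024 and an adjusted p of 0.346 by limma. Without ADX replicate 3 it was -0.79, within slide 1 it was -0.71, and after normexp it was -1.34.

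Kcnk3, the acid-sensitive background channel TASK-1, had levels of 4.29, 4.02 and 3.89 in ADX hearts, against 3.98, 3.81 and 4.30 in sham hearts, a difference of 0.040 ± 0.17 (SE, n = 3 each). These groups overlapped over nearly their whole range. A dimmer Kcnk3 probe gave -0.42 ± 0.20 with an unadjusted p of 0.0794. Kcnk6, or TWIK-2, had -0.28, -0.15 and -0.18 in ADX hearts, against 0.014, 0.073 and -0.14 in sham hearts. Its groups did not overlap, by a margin far smaller than the spread, and the difference was -0.19 ± 0.11 with an adjusted p of 0.526. Kcnk7 passed the filter through sham, being above background on 1 ADX array and all 3 sham arrays. It differed by -0.64 ± 0.31, with an adjusted p of 0.451 by limma, and by -1.28 after normexp.

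Among the calcium-activated channels of the small-conductance type, Kcnn1 had a difference of 0.028 ± 0.14 (SE, n = 3 each). Kcnn2, the main such channel of atrial muscle, had 0.014 ± 0.12 at its brighter probe and -0.31 ± 0.21 at the other, and -0.15 for the mean of both. Kcnn4, the intermediate-conductance channel of blood cells and vessels, had 0.42 ± 0.35 through a single high value of -1.13 in ADX replicate 2, while its other 5 values lay between -2.51 and -2.37. Without ADX replicate 2 the Kcnn4 difference was -0.028. Kcnmb4, a beta subunit of the large-conductance channel, had levels of -3.55, -3.43 and -3.72 in ADX hearts, against -3.32, -2.44 and -3.37 in sham hearts. Its groups did not overlap, but the difference of -0.52 ± 0.25, with an adjusted p of 0.46 by limma, was -0.22 without sham replicate 2 and -1.18 after normexp. Kcnt2, a sodium-activated channel, differed by -0.26 ± 0.12 with an adjusted p of 0.442, and by -0.24 at a second probe. After normexp the Kcnt2 difference was -1.14.

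Kcnd2 was the extreme of 11 reported Kcn genes with 2 tested probes. The probes had the same sign in 6 of the 11 and opposite signs in 5, and the median gap between their differences was 0.29 on the log2 scale. In all 5 with opposite signs, the difference at the brighter probe was smaller than its own SE. Gaps were smallest for Kcnj3 and Kcnj8, at 0.0081 and 0.0084, and largest for Kcnip3 and Kcnd2, at 0.73 and 0.85. Kcnip3, or calsenilin, differed by -0.024 at its brighter probe and by -0.76 ± 0.55 (SE, n = 3 each) at the other, where sham replicate 2 stood at -1.74 and all other hearts lay between -4.10 and -3.72. The longest run of bases shared by probes of different Kcn genes was 15.

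**Figure D5:**
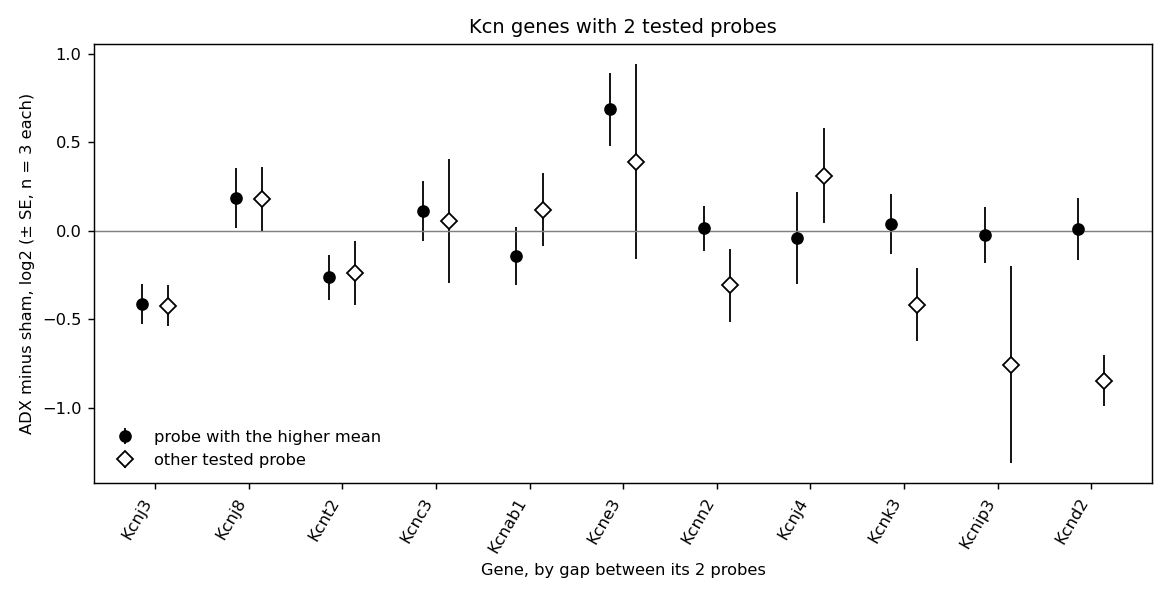
Fitted difference, ADX minus sham on the log2 scale (y axis), at both tested probes of 11 Kcn genes (x axis, ordered by the gap between the probes). Filled circles are the probe with the higher mean and open diamonds the other, with bars of 1 SE (n = 3 each); the 2 probes coincide for Kcnj3 at -0.41 and -0.42 and lie apart for Kcnd2 at 0.0096 and -0.85.

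A list of 30 partners and regulators of these channels held 21 tested genes, of which 0 passed an adjusted p of 0.05 in either direction by limma. At an unadjusted p under 0.05, 1 was higher and 4 were lower in ADX, where the background over all genes was 6.27% higher and 5.99% lower, and the median difference was -0.12 beside 0.032 over all genes. Abcc9, the sulfonylurea receptor of vascular and cardiac ATP-sensitive channels, differed by 0.35 ± 0.14 (SE, n = 3 each) with an adjusted p of 0.378. Dpp10, a Kv4 accessory protein, differed by -0.80 ± 0.25, and Ank2, the membrane adaptor ankyrin-B, by -0.69 ± 0.16, with adjusted p of 0.307 and 0.23.

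The transcription factors Irx3 and Irx5, of which Irx5 is known to repress Kcnd2 in mouse ventricle, also had lower means in ADX. Irx3 levels were -3.41, -3.38 and -3.66 in ADX hearts, against -2.74, -2.86 and -3.02 in sham hearts, without overlap. The Irx3 difference was -0.61 ± 0.13 (SE, n = 3 each), with an unadjusted p of 0.00228 and an adjusted p of 0.207 by limma. Irx5 lay at -2.08, -1.78 and -2.05 in ADX hearts, against -1.56, -1.64 and -1.75 in sham hearts, a difference of -0.32 ± 0.12 with an adjusted p of 0.379. Its groups did not overlap either, though ADX replicate 2 and sham replicate 3 lay side by side.

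Promoters were compared with the DNA element of the glucocorticoid receptor as a description of sequence only. RefSeq promoters on GRCm38.p6, from 250 bases before to 50 bases after the start, matched 62 of the 84 genes. The palindrome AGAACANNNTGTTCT, which reads alike on both strands, was found in 0 of these 62 and in 3 of 27025 genes in all. Its half-site AGAACA, on either strand and contained in the palindrome, was found in 10 of 62 (16.1%), among them Kcnj5, Kcnab1 and Kcnmb4, against 21.3% of all genes.

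Markers of the other cell types in the heart give the setting of these values. All 12 tested of 13 adipocyte markers had higher means in ADX, with a median difference of 1.37 and a summed level of 705 to 1004 in ADX hearts, against 539 to 673 in sham hearts. Their median deviation from the sham mean was 0.24, 2.13 and 1.81 in ADX hearts, against -1.09, 0.68 and 0.075 in sham hearts, so that ADX replicate 1 lay inside the sham range. The 10 cardiomyocyte markers had a median of -0.16, the 10 smooth muscle markers -0.15 and the 10 endothelial markers -0.12. Medians were 0.0028 for 10 neuron and glia markers, 0.40 for 10 lymphocyte markers, 0.28 for 5 red cell markers, -0.31 for 8 skeletal muscle markers and -0.31 for 7 conduction system markers. None of these lists held a gene past an adjusted p of 0.05 by limma, and the part of any of these cell types in a Kcn value was not tested.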

How the data were processed

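The 6 arrays hold heart RNA of 3 ADX and 3 sham mice, grouped by the sample titles. The labels' protocols state that 50 ng of RNA was amplified and 5 µg of labelled cDNA used. Per the file headers, the spots' deposited processed signals are background-subtracted, detrended intensities on a linear scale, not normalized between arrays, read with Feature Extraction 9.5.3.1 (9.5 per the submitters' processing notes) on a design made for mm7. The intensities in the deposited value table equalled them within a relative tolerance of 1e-06 at all 45018 spots of each array.

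The intensities were taken as log2 minus the 75th percentile of each array, control and outlier-flagged spots were left out, and repeat spots averaged. A probe was tested when every array of a group measured it well above background, and a gene was its tested probe with the highest mean. RefSeq accessions named 104 of the 123 Kcn probes, changing no symbol, and 19 kept the name in the file. ADX minus sham was fitted over all 16948 genes by limma 3.58.1 (lmFit, then eBayes; R 4.3.3) with Benjamini-Hochberg adjustment, and the method was checked on simulated data. Python 3.11.15 with pandas 2.3.3, numpy 2.4.6 and matplotlib 3.10.9 did the rest.

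Named were the cardiac channel list, any Kcn gene past the threshold, the lowest p of each subfamily, the 5 largest non-overlapping differences per direction, genes above background on all arrays of only 1 group, and partners with an unadjusted p under 0.05. Kcnip3 and Kcnj4 are named for their 2 probes, Kcnj14 to complete a group, after their values were seen. Some genes that the rule names are not reported here. The members and lists were chosen with earlier results of these data known. Alternatives covered background correction, scaling, filters, probe choice, slide, replicate number, variance model and each array left out. The main fit did not pair hearts by replicate number. Deviations of same-numbered hearts correlated at 0.16, 0.16 and -0.16, against -0.31 to 0.18 for other pairs. So few hearts cannot settle whether the numbers pair them.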

Additional observations from a re-analysis of the deposited data

How the results depend on the processing

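The 0 Kcn genes past an adjusted p of 0.05 stayed at 0 in both directions under all alternatives but 2. After normexp, 22 of the 47 Kcn genes (46.8%) were lower and 0 higher, where 4730 of all genes (27.9%) were lower and 1220 (7.2%) higher. These 22 had negative mean levels in both groups, as did some Kcn genes that were not called. On slide 1 alone 1 was higher, Kcnma1, seen on ADX replicate 1 only. At an unadjusted p under 0.05 the higher count of 6 was 3 after normexp and 3 for genes above background on all 6 arrays, and 3 to 6 with each array left out. The lower count of 4 was 26 after normexp, 7 after quantile normalization, 2 with the slide as a fixed block, and 2 to 6 with each array left out (2 without sham replicate 2; 3 higher without sham replicate 3). With the replicate number as a block, 8 were higher and 7 lower at that p. The median difference of -0.024 was -0.61 after normexp, where that of all genes was -0.051, and 0.0062 with the slide as a fixed block. With each array left out it was -0.100 to -0.0083 over the same 47 genes. Where the filter was applied anew to the remaining arrays, it ran from -0.11 without sham replicate 3 to 0.015 without ADX replicate 2. The cause of these changes was not tested.

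Of 34 named genes, 15 kept their direction under every alternative and 19 did not in 57 of 674 values. After normexp these were Kcna2 at -0.93, Kcnab2 at -0.67, Kcnc4 at -1.08, Kcnd3 at -0.61, Kcne3 at -0.58, Kcne4 at -0.71, Kcnj11 at 0.085, Kcnj15 at -1.04, Kcnj9 at -1.01, Kcnn1 at -0.074, Kcnn4 at -0.32, Kcnq1 at 0.30 and Kcns1 at -0.83. With the slide as a fixed block and on slide 1 alone they were Kcnj11 at 0.034, Kcnj5 at 0.25, Kcnj9 at -0.17, Kcnn4 at -0.062 and Kcnq1 at 0.16. Quantile normalization gave Kcnd2 at -0.011, Kcnj9 at -0.032 and Kcnn2 at -0.0030. Median centring gave Kcnd2 at -0.028, Kcnd3 at -0.0075, Kcnn1 at -0.0093 and Kcnn2 at -0.024. A percentile over detected probes gave Kcnd2 at -0.0019. The mean of both probes gave Kcnd2 at -0.42, Kcnk3 at -0.19 and Kcnn2 at -0.15. With each array left out, signs turned within -0.28 to 0.011 for Kcnab1, -0.100 to 0.17 for Kcnd2, -0.15 to 0.28 for Kcnd3, -0.22 to 0.019 for Kcnj5, -0.23 to 0.25 for Kcnj9, -0.070 to 0.18 for Kcnk3, -0.078 to 0.13 for Kcnn1, -0.071 to 0.093 for Kcnn2, -0.028 to 0.66 for Kcnn4, -0.10 to 0.035 for Kcnq1 and -0.54 to 0.033 for Kcnq1ot1.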
